A study of Bos taurus with 2 samples.

Results

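The 8 genes described here mark the contractile cells of the testis: ACTA2, MYH11, DES, CNN1, TAGLN, ACTG2, MYLK and CALD1. They were taken by name, as all non-control probes of the array that carry one of these 8 gene names, which gave 21 probes in 25 spots out of 51282 probes, 61657 spots and 32429 gene names. All 8 are symbols in the RefSeq gene table of ARS-UCD2.0. The samples were testes of 24 month old bulls. The bulls were 3 Holstein Friesian crossbreds with an exotic inheritance of 50 to 75% and 3 Zebu bulls of the Tharparkar breed. No treatment is named that set the groups apart. The bulls were sedated with xylazine and infiltrated with lignocaine for the castration. The RNA came from slices of 1 testis per bull, with no sorting of cells. RNA was pooled within each group before labelling with Cy3, so each group is 1 array of a pool, no value below has a replicate between animals, and no test between the groups can be made.

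Peritubular myoid cells are flat contractile cells that wrap the seminiferous tubules. They move sperm and fluid along the lumen, lay down part of the basement membrane together with Sertoli cells and secrete factors for the germ cells inside. Their contractile machinery is that of smooth muscle: actin and myosin filaments slide past each other after calcium and calmodulin activate myosin light chain kinase, while caldesmon and calponin on the thin filament restrain them. The same genes are active in the muscle of testicular arteries and, in part, in pericytes, so none of the 8 is specific for the tubule wall. In bulk tissue, fewer cells of a type and less RNA per cell cannot be told apart.

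All 8 genes had signals well above background in both pools, and all 8 were lower in crossbred than in Zebu testis, against 53% of all detected gene names. The median difference was -0.73 on the log2 scale, which puts the crossbred signal at 60.4% of the Zebu signal, against a median of -0.05 over the 24758 detected gene names. DES and ACTA2 were the lowest, with crossbred signals of 49.2% and 50.4% of the Zebu signal, and CALD1 was the nearest to no difference, with 86.1%. None of the 8 reached a log2 difference of 1.5 in either direction, a size that 2.98% of all detected gene names reached as lower and 7.25% as higher. At a linear fold of 1.5, which is 0.58 on the log2 scale, 5 of the 8 were lower and 0 were higher, against 22.3% lower and 21.5% higher among all detected gene names. Like the 8 genes, 9313 gene names had signals well above background in both pools and a mean over the 75th percentile of the array. Of these, 52% were lower, 17.1% were lower by that fold, and the median was -0.04.

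A gene is read here from its brightest probe. A level is the log2 of the processed signal minus the 75th percentile of its array, so that 0 is the 75th percentile, and a difference is crossbred minus Zebu. The only error available is that between spots of the same probe: over 5962 probes with several spots, the SD of a difference was 0.33, which covers spotting and scanning but not pooling, labelling or animals. By this measure 7 of the 8 differences were larger than 1 SD, and that of CALD1 was not. Passing 1 SD is common on these arrays. At 0.58, a larger size, 22.3% of all detected gene names were lower and 21.5% higher. Between different probes of the same gene, the pooled SD of a difference was 0.51 over 8185 genes and 0.24 over the 7 of the 8 genes with several probes well above background in both pools.

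None of the 25 spots lay in the dark patch of the crossbred array (rows 54 to 99, columns 35 to 46) or in its bright patch. A spot of MYH11 lay 1 column outside the dark patch. It gave a difference of -0.52, and the other spot of the same probe, far from it, gave -0.48. Around the 25 spots, the median difference of the 18 nearest spots ran from -0.32 to 0.40, with a median of -0.05, near the median of all gene names.

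The probes are 60 bases long, and their letters show which readings may not be specific. The DES probe that starts at base 405 of its transcript also lists transcripts of VIM and PRPH, other intermediate filament proteins. Below, it is set beside the VIM probe of the same region, and capitals mark the longest run that both hold, of 27 bases. Aligned on that run, the 2 probes overlap by 46 bases and match at 44 of them, so much of the lower-case part is shared as well. A run of 17 bases of this DES probe also stands in a probe of PDE4C. The ACTG2 probe at base 271 also lists a transcript of ACTC1, the cardiac actin, and shares a run of 17 bases with a probe of ACTB. The ACTG2 probe at base 865, shown after the VIM probe, shared no run of 16 bases or more with any other probe. Runs were sought among the probes of the array only, so a match to transcripts of other actins was not tested. Runs of 16 bases were also shared by the brightest MYH11 probe with a probe of GAD1 and by the CALD1 probe at base 744 with a probe of CREB3L3. The last sequences are the probe from which CALD1 was read and the MYH11 probe at base 714, which is placed over 3848 bases of the genome. The letters are those of the deposited array files, written 5′ to 3′.
DES, base 405: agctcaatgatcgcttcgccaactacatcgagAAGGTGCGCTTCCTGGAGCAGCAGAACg
VIM: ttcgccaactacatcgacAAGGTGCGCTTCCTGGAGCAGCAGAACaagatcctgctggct
ACTG2, base 865: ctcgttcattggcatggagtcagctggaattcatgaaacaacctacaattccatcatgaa
CALD1, base 517: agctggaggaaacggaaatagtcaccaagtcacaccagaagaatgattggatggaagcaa
MYH11, base 714: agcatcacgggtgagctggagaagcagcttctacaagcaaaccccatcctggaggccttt

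The 8 genes lie on 8 chromosomes. Of the 21 probes, 8 are placed on HGSC Btau_3.1, the build of the array annotation, over a stretch of 179 to 5447 bases, longer than the probe, and the rest over a stretch of about their own length. Positions below are on that build.

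**Figure D1:**
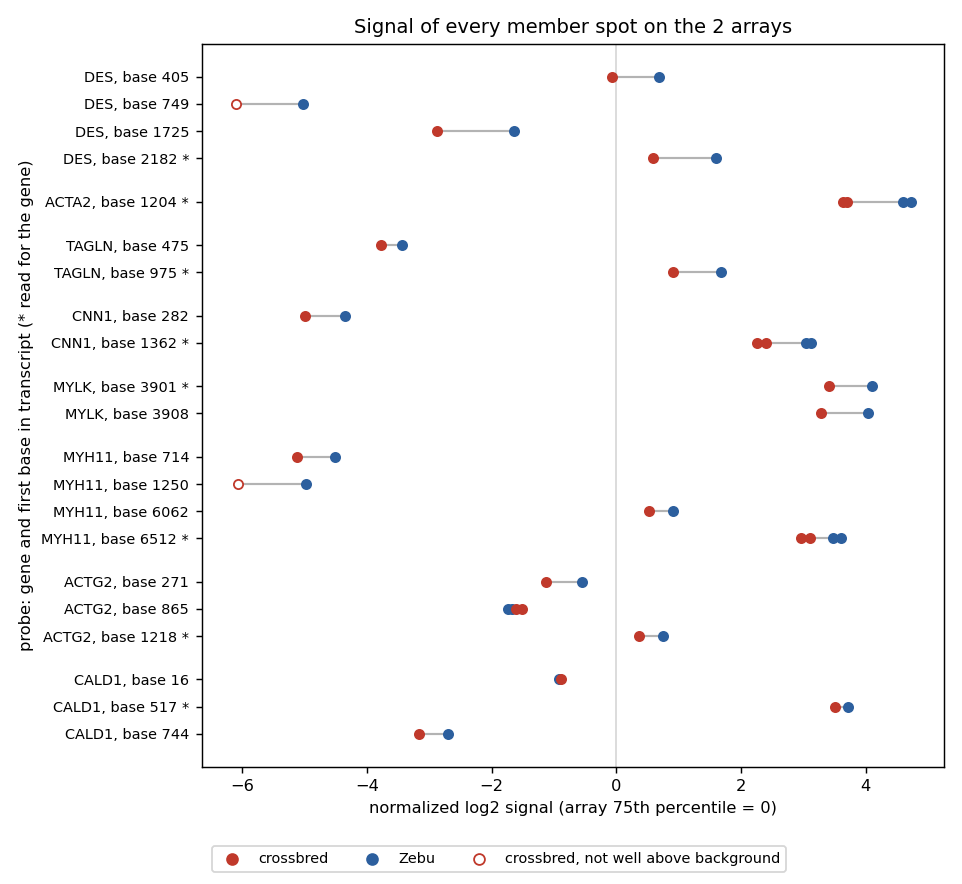
Normalized log2 signal (x axis, 0 is the 75th percentile of the array) of each of the 25 spots, with 1 line per probe named by its gene and the base of the transcript at which it starts (y axis); red points are the crossbred array, blue points the Zebu array, open points are not well above background, and grey lines join the probe means. The Zebu points lie to the right for 19 of the 21 probes, and the exceptions are ACTG2 at base 865 and CALD1 at base 16.

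The thin filament of smooth muscle is built from actins, and 2 of the 8 genes encode them. ACTA2, the alpha actin of vascular smooth muscle and the usual marker of peritubular myoid cells, was read from a probe on the minus strand of chromosome 26 from 11078949 to 11079008. Its 2 spots had processed signals of 15293 and 14626 in crossbred testis, and of 32473 and 29845 in Zebu testis. The mean levels were 3.67 and 4.66. Both spots were lower on the crossbred array, by 1.02 and 0.96, and the difference of the probe was -0.99, a Zebu signal 1.99-fold the crossbred signal. ACTA2 has no second probe on the array.

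ACTG2, the gamma actin typical of visceral smooth muscle, has 3 probes on chromosome 11, and they disagreed. The brightest, from 11145289 to 11145345 on the minus strand, had a level of 0.36 in crossbred and 0.74 in Zebu testis, which is a difference of -0.38. The probe at base 271, which also lists ACTC1, differed by -0.59. The probe at base 865, whose 2 spots differed by 0.16 and 0.12, was higher on the crossbred array by 0.14. This is the only ACTG2 probe with replicate spots, and its value lies within the spot SD of 0. With the probe that lists ACTC1 left out, the mean of the others was -0.12. ACTG2 is therefore lower by its brightest probe and without a settled direction over its probes.

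By the brightest probe of each, the actins ACTB, ACTG1, ACTC1 and ACTA1 were nearer to 0 than ACTA2. ACTB and ACTG1, the cytoplasmic actins of all cells, differed by -0.36 and -0.57, and the 5 other probes of ACTG1 had a median of -0.23. ACTC1 differed by 0.16. ACTA1, the skeletal actin, differed by -0.14 in its brightest probe, while the median of its 3 other probes was 1.81 (range -0.15 to 1.99). None of these actins passed a linear fold of 1.5 by its brightest probe.

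The thick filament and its switch were also lower. MYH11, the smooth muscle myosin heavy chain, was read from a probe near the end of its transcript, at base 6512, on chromosome 25 from 15183395 to 15183454. Its level was 3.03 in crossbred and 3.54 in Zebu testis. The difference was -0.50, and its 2 spots lay 0.04 apart. The 3 other probes pointed the same way. They start at bases 714, 1250 and 6062, and differed by -0.60, by at least 1.74-fold lower, and by -0.39. The bound is given because the crossbred signal of the probe at base 1250 was not well above background. The 4 MYH11 probes thus had differences of one sign, but those at bases 714 and 1250 were dim. At base 714 the levels were -5.11 in crossbred and -4.52 in Zebu testis. The bright readings come from near the end of the transcript only.

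MYLK, the myosin light chain kinase that starts contraction, has 2 probes on the minus strand of chromosome 1, from 69082127 to 69082186 and from 69082120 to 69082179. They share 53 bases, so they are near repeats of a single reading and not separate evidence. The first had levels of 3.41 and 4.11 and a difference of -0.70, and the second had 3.28 and 4.04 and a difference of -0.76. Their spots lay far apart, in rows 119 and 265 of the array.

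The proteins that bind the thin filament differed in size. CNN1, or calponin, which slows the myosin motor, had a level of 2.33 in crossbred and 3.08 in Zebu testis, which differ by -0.76, from a probe on chromosome 7 at 14343111 to 14343170. Its 2 spots differed by -0.80 and -0.72. The second CNN1 probe, dim on both arrays with levels of -4.98 and -4.36, gave -0.63. Both CNN1 probes passed a linear fold of 1.5.

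TAGLN, or transgelin, an actin cross-linker that appears early in smooth muscle cells, had levels of 0.90 and 1.68, a difference of -0.77, from a probe on chromosome 15 at 26326451 to 26326510. Its other probe, at base 475, gave -0.33. Both were lower on the crossbred array, and only the brighter one passed a linear fold of 1.5.

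CALD1, or caldesmon, which has a long smooth muscle form and shorter forms in other cells, was the least different. Its brightest probe, shown above, lies on chromosome 4 from 102348571 to 102348628 and had levels of 3.50 and 3.72, a difference of -0.22. The probe at base 16 differed by 0.04 and the probe at base 744 by -0.46. The first 2 of these values lie within the spot SD of 0, and which CALD1 form a probe detects was not tested.

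DES, or desmin, the intermediate filament of muscle cells, was the lowest of the 8. It was read from a probe on chromosome 2 from 111760380 to 111760924, at base 2182 of the transcript, with levels of 0.58 and 1.61 and a difference of -1.02. The probe at base 1725 differed by -1.23, the largest measured difference among the 21 probes. At base 749 the crossbred signal was not well above background, and the probe was at least 1.69-fold lower. The probe at base 405, which also lists VIM, differed by -0.76, and the VIM probe printed beside it differed by -0.81. All 4 DES probes were lower by at least a linear fold of 1.5, so the reading does not rest on the probe shared with VIM.

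**Figure D2:**
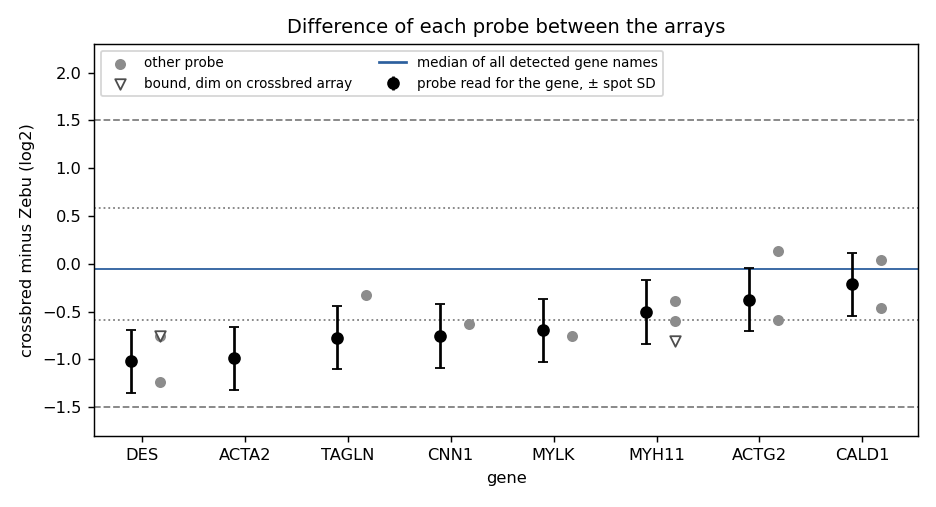
Difference between the arrays (y axis, crossbred minus Zebu, log2) for each probe of the 8 genes (x axis); black points are the probe read for the gene with bars of 1 SD between spots, grey points are other probes, open triangles are bounds where the crossbred array was dim, the blue line is the median of all detected gene names, dotted lines mark a linear fold of 1.5 and dashed lines a log2 difference of 1.5. All black points lie below the blue line, from -1.02 for DES to -0.22 for CALD1, and no point reaches the dashed lines.

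Counted by probe, 19 of the 21 were lower and 2 were higher on the crossbred array, and 13 were lower by a linear fold of 1.5 or more, against 54.6% lower by any amount and 22.8% by that fold among all 39804 detected probes. None was higher by that fold, as 20% of all detected probes were. None passed a log2 difference of 1.5, which 2.99% of them passed as lower and 6.14% as higher. Signals were well above background in both pools for 19 of the 21 probes and in the Zebu pool only for 2. In order from the lowest, the genes were DES, ACTA2, TAGLN, CNN1, MYLK, MYH11, ACTG2 and CALD1. No neighbours in this order differed by more than 0.22, which is under the spot SD, so the order of neighbours is not settled. The ends of the order lay 0.81 apart, more than the spot SD. The 4 probes with replicate spots had differences that agreed within 0.03 to 0.08 between the spots.

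The other genes of the contractile apparatus were lower by less. Of 33 partners of the 8 genes in filaments, attachment plaques and caveolae, all with signals well above background in both pools, 25 were lower, with a median of -0.39, where 53% of all detected gene names were lower. By a linear fold of 1.5, 11 were lower and 1 was higher, against 22.3% and 21.5% of all detected gene names. TPM4, a tropomyosin, differed by -1.41, and its 3 other probes by -1.30 to -0.90. PDLIM3, an actinin-binding protein of muscle, differed by -1.39, and its other probes by -1.53 and -1.30. TPM1, the tropomyosin of muscle, had levels of 0.77 and 1.68, a difference of -0.91, and a median of -1.36 over 8 other probes. The regulatory light chain MYL9, which MYLK acts on, differed by -0.32, and by -0.91 in its second probe.

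Genes that control contraction went both ways. Of 22 on the array 21 were detected, with a median of -0.07, and 7 were lower and 2 higher by a linear fold of 1.5, against 22.3% and 21.5% of all detected gene names. The lower ones included both sides of the endothelin signal that makes myoid cells contract. EDNRA, a receptor for endothelin, had levels of -0.72 and 0.77, a difference of -1.49, and its other probes gave -1.85 and -1.44. EDN1, the ligand, was dim, with levels of -5.37 and -3.17 from a single spot, and differed by -2.20. The receptor EDNRB was not well above background on either array.

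Of the other regulators past a log2 difference of 1, PRKG1, the cGMP-dependent kinase that relaxes smooth muscle, differed by -1.56, and by -0.87 in its second probe. AVPR1A, a vasopressin receptor, was dim, with levels of -5.01 and -3.82 from a single spot, and differed by -1.18. GATA6, a transcription factor of smooth muscle, differed by -1.26 and -1.57 in its 2 probes. Against them stood MKL2, a coactivator of serum response factor, with 1.73, although its other probe gave -0.42. SRF, the factor itself, was dim and differed by 0.25. MYOCD, the myocardin that drives these genes through SRF, is named after its value was seen. Its signal cleared the background in the crossbred pool only and was at least 44.9-fold higher, from 1 spot beside which 2 of the 6 adjacent spots were also higher by 1.5 or more. The part of those surroundings in the MYOCD value was not tested.

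Genes for the secreted products and receptors of peritubular cells were lower as a list. Of 16 on the array 13 were detected, with a median of -0.59, and 12 of the 13 were lower, against 53% of all detected gene names. By a linear fold of 1.5, 8 were lower and 0 were higher, against 22.3% and 21.5% of all detected gene names. Not all of the 12 are firm: FN1 differed by -0.01, and BGN by -0.59 against a median of 0.24 over its 2 other probes. PDGFRB was dim in the crossbred pool, with a measured difference of -0.83 and a bound of -0.18. PDGFRA, a receptor for platelet-derived growth factor on interstitial and peritubular cells, differed by -1.08, with -1.09 to -0.74 in its other probes. NR2F2, a nuclear receptor of interstitial and peritubular precursors, differed by -1.03, with -1.05 to -0.85 in its other probes. CXCL12 differed by -1.10, and its other probes by -0.63 and 0.22. GDNF and LIF, secreted growth factors, were not well above background on either array, so nothing can be read from them. In the contractile, control, and secretion and receptor lists and the other actins, 33, 20, 12 and 4 genes had both signals well above background. Of all these, 12 passed a log2 difference of 1, of which 10 were lower and 2 higher. The shares among all detected gene names were 8.92% lower and 12.9% higher. Those shares required only the brighter side to be well above background, a looser rule, under which MYOCD would also count as higher.

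**Figure D3:**
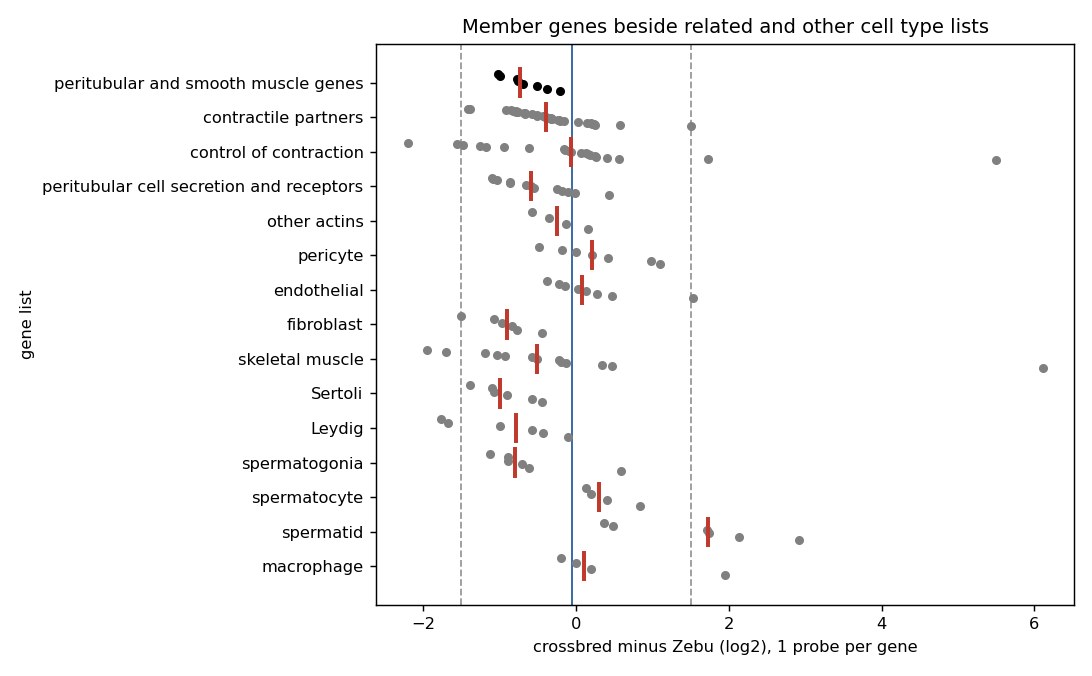
Difference between the arrays (x axis, crossbred minus Zebu, log2) of each detected gene, 1 probe per gene with dim sides at their bound, in the 8 genes (black) and in 14 other lists (grey); red bars are list medians, the blue line is the median of all detected gene names and dashed lines mark 1.5. The 8 genes centre on -0.73. The fibroblast, Sertoli, Leydig, spermatogonia, skeletal muscle, and peritubular secretion and receptor lists centre between -0.99 and -0.51. The pericyte and endothelial lists centre near 0 and the spermatid list lies to the right.

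Markers of other cells of the testis differed as well, and their part in the lower values of the 8 genes was not tested. The label of the tissue as testis was borne out by defining markers of its cells: PRM1 of spermatids had levels of 7.43 in crossbred and 7.07 in Zebu testis, INSL3 of Leydig cells 6.25 and 6.69, and CLDN11 of Sertoli cells 4.46 and 5.04. For each list, a summed level adds the signals of its genes in units of the 75th percentile of the array. The 6 spermatid genes were all higher on the crossbred array, with a median of 1.73 and summed levels of 394 on the crossbred and 236 on the Zebu array. ODF1, of the sperm tail, differed by 2.13. The 6 fibroblast genes, all lower, had a median of -0.90 and summed levels of 9.95 and 20.9, with COL3A1 at -1.51. These are collagen and matrix genes that peritubular cells also express. The 6 detected Sertoli genes of 7 were all lower, with a median of -0.99 and summed levels of 54.8 and 103.3, and INHBB was not well above background on either array. All 6 Leydig genes were lower, with a median of -0.79 and summed levels of 87.8 and 132.5. Of the 6 spermatogonia genes 5 were lower, with a median of -0.80 and summed levels of 27.0 and 40.0. The 4 spermatocyte genes were all higher, with a median of 0.30 and summed levels of 11.1 and 9.54.

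The lists of vessel cells had medians on the other side of 0. Apart from MCAM and CLDN5, every gene of these lists had levels below 0 in both pools. Many were dim, such as RGS5 with levels of -4.99 in crossbred and -5.20 in Zebu testis. The 7 pericyte genes had a median of 0.21, a range of -0.49 to 1.11 and summed levels of 2.90 and 2.70. Of the 7, 2 were lower by any amount, 0 were lower by a linear fold of 1.5 and 2 were higher by it, the last a share near the 21.5% of all detected gene names. CSPG4, higher by that fold with a difference of 0.98, had a median of -0.14 over its other probes. The 8 endothelial genes had a median of 0.08 and summed levels of 6.19 and 2.98, of which CLDN5 made up most of the gap with a difference of 1.54. Of the 8, 3 were lower, and the range was -0.38 to 1.54. Of the 14 skeletal muscle genes, 13 were detected and 9 of them on both arrays, with a median of -0.51 and summed levels of 4.16 and 4.26. Of the 13, 10 were lower, against 53% of all detected gene names. By a linear fold of 1.5, 5 were lower and 1 was higher, against 22.3% and 21.5%. TNNI2 was not well above background in either pool. MYH1, MYH2 and CASQ1 were so in Zebu testis only, and NEB in crossbred testis only. NEB had levels of 0.17 in crossbred and -6.25 in Zebu testis, which raised the crossbred sum. Beside its spot, 3 of the 6 adjacent spots were also higher by 1.5 or more. ACTN3, which counts among the lower genes with a difference of -1.95, has its spot in a patch. The 4 macrophage genes had a median of 0.10 and summed levels of 10.3 and 4.14, a gap that lay in AIF1 with levels of 3.09 and 1.14. Of the 3 epididymis genes, CRISP1 and RNASE10 were not well above background on either array, and GPX5 was so in crossbred testis only, with a spot in a patch.

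The processing left the picture of the 8 genes in place. Of 10 other settings, 5 move all 8 genes by the same amount, 0.03 at most, and so could hardly alter the picture. Under the 5 that act on single genes, each of the 8 genes was lower on the crossbred array, and no value moved by more than 0.26. The median of the 8 ran from -0.83 to -0.62.

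**Figure D4:**
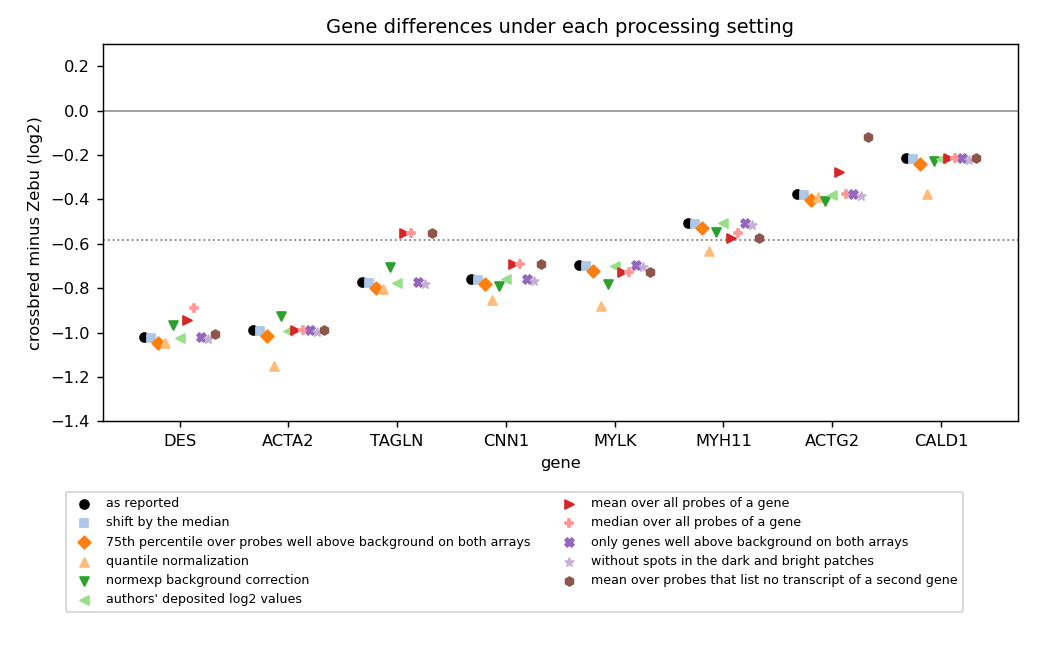
Difference between the arrays (y axis, crossbred minus Zebu, log2) of each of the 8 genes (x axis) as reported (black) and under 10 other processing settings (coloured symbols); the dotted line marks a linear fold of 1.5. All points lie below 0, ACTG2 moves the nearest to it at -0.12, and TAGLN and MYH11 lie on both sides of the dotted line.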

How the data were processed

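The data are 2 one-colour Agilent arrays of the same slide, with 1 pool of testis RNA per group. The files deposited by the authors hold an intensity per spot, the processed signal of Feature Extraction 11.5.1.1, from which the software had already removed background and a spatial trend. The authors also deposited log2 values shifted by the 75th percentile of each array. Control spots and 13 outlier spots were dropped. No spot was saturated. For each probe the mean log2 signal of its spots was taken, less the 75th percentile of the array (1176 in crossbred and 1233 in Zebu as signals). The scanner software called 72.0% of crossbred and 74.3% of Zebu spots well above background. A probe was well above background where all its spots were, and detected where this held on at least 1 array. Otherwise the dim side was the higher of its own level and the lowest level among probes well above background, -5.78 on the crossbred and -5.94 on the Zebu array, and the value is a bound. In counts over all features, a feature passed a threshold by its measured difference, provided its brighter side was well above background. Precision is limited by the number of arrays. The members and lists were chosen with earlier results of these data known. Genes of the lists are named where both signals were well above background and the log2 difference passed 1, with MYL9, TPM1 and SRF, and further list genes were named after their values were seen. Some genes and sequences that fall under these rules are not reported here. Alternatives were other shifts, quantile normalization, normexp with an offset of 50, the authors' log2 values, all probes of a gene, a stricter filter the patches left out and, chosen after seeing the data, probes that list a second gene left out. Python 3.11.15, pandas 2.3.3, numpy 2.4.6, matplotlib 3.10.9, R 4.3.3 and limma 3.58.1 were used, and the steps were tested on simulated data.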

Additional observations from a re-analysis of the deposited data

How the results depend on the processing

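No paired analysis was possible because each group has 1 array, and no replicate could be left out. Of the 10 alternatives, 5 could only move the 8 genes together, by 0.03 at most: 3 other scalings, the patches left out (no spot of the 8 genes lies there) and the stricter filter (which all 8 pass). In the other 5, which act on single genes, 40 of 40 gene values were lower on the crossbred array and within 1 spot SD of the reported value, although ACTA2, with 1 probe, cannot respond to the 3 that combine probes. Those 3 also repeat each other, with the same value in each for CNN1, TAGLN and MYLK. The 40 values are therefore not separate checks. The count of genes lower by a linear fold of 1.5 was 4 to 6, against 5 as reported: 6 after quantile normalization, where MYH11 joined, and 4 with the mean or median over all probes, or the mean without probes that list a second gene, where TAGLN dropped out. The count at a log2 difference of 1.5 stayed at 0. The median of the contractile partners ran from -0.47 to -0.33. Relative to the median of all detected gene names, which ran from -0.08 to -0.02, the list lay lower by 0.58 to 0.75. Leaving out probes that list a second gene was chosen after seeing the data and brought ACTG2 to -0.12. Probes near background give only bounds, which limits DES at base 749 and MYH11 at base 1250.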
